A study of Mus musculus with 6 samples.

Results

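Sugar metabolism in blood neutrophils was examined through 33 genes of glucose uptake, glycolysis, lactate export, the pentose phosphate pathway and glycogen storage. They were taken by symbol from a fixed list, and all 33 were found among the 47561 features measured. RNA sequencing had been done on mouse blood neutrophils isolated by flow sorting (tissue PB in the labels), with 3 samples of control mice, labelled negative control, and 3 samples taken after 30 days of AVP administration. What AVP stands for is not spelled out in the labels, which call the genotypes control and AVP and give no strain, sex, age, dose or pooling. Values are FPKM, which count sequenced fragments relative to transcript length and library depth, so levels can be compared between genes. Whether the samples of a group are different animals is not stated, and p-values measure only their spread, which may be technical.

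Neutrophils draw most of their energy from glycolysis, in which glucose is taken up, phosphorylated, split and oxidised to pyruvate. Pyruvate is then reduced to lactate, which leaves the cell through a proton-coupled transporter together with its chaperone basigin. A branch from glucose 6-phosphate, the pentose phosphate pathway, makes the NADPH that feeds the oxidative burst, and stored glycogen gives neutrophils a local supply of glucose. The study's title links AVP to release of the cytokine IL36G, and the comparison here asks how transcripts of the sugar pathways stood in neutrophils after AVP.

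On the fitted scale 3 members had the largest differences, Slc16a3, Ldha and Tpi1. Slc16a3, which encodes the lactate exporter MCT4, averaged 10.2 ± 5.80 FPKM in the control libraries and 44.9 ± 7.72 FPKM in the AVP libraries (SD, n = 3), with no overlap between the groups. Ldha, the main lactate dehydrogenase subunit, and Tpi1, triosephosphate isomerase, were also higher on average after AVP, while Hk2, a hexokinase, and Pgd, an NADPH-producing enzyme, were lower. None of these differences passed the test across all genes. The most abundant members, Taldo1, Pygl, Aldoa and Pkm, differed between the groups by less than the spread between libraries.

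The start regions of Slc16a3, Ldha and Hk2 are shown because Slc16a3 and Ldha had the largest fitted log2 fold changes, Hk2 had the second lowest, and all 3 hold the core letters bound by hypoxia-inducible factors. Each line gives the 250 bases before a RefSeq start of transcription in GRCm38.p6, 5′ to 3′ on the gene's strand. Tpi1, whose ratio of mean FPKM (4.04) was above that of Ldha (3.61), held no match and is not shown. Gbe1, with the lowest log2 fold change (-0.78), also held no match and is not shown. The letters ACGTG on either strand (CACGT on the printed one) are in capitals. Overlapping matches are counted separately.
Slc16a3: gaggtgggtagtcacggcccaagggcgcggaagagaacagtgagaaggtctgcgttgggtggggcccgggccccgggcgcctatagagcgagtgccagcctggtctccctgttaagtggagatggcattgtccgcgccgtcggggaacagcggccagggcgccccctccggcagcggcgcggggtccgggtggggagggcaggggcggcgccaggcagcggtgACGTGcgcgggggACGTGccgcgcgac
Ldha: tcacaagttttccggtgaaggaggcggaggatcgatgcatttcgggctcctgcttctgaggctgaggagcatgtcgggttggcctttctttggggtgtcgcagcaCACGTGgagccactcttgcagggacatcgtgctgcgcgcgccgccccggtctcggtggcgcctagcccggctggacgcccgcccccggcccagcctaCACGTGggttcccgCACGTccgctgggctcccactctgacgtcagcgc
Hk2: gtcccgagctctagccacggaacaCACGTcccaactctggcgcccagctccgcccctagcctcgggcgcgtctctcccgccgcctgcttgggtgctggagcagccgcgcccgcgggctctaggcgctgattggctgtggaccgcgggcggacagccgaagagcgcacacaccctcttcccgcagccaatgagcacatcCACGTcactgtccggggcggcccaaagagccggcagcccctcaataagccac

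The Slc16a3 window is chr11:120948817-120949066 on the plus strand and has 2 matches. It lies inside the annotated span of the gene, and another annotated transcript starts within its last bases. The Ldha window is chr7:46845554-46845803 on the plus strand, in an intron of a longer transcript, and has 5 matches because 2 of its sites are palindromes read on both strands. A second annotated Ldha start had 0 matches in its window. The Hk2 window is chr6:82774455-82774704 on the minus strand, upstream of the gene, and has 2 matches. Windows were available for 32 of the 33 members (not for Slc2a3), and 14 of those 32 (43.75%) held ACGTG in at least 1 window, against 18.49% of all 27025 genes with a window. A gene with more windows can more easily hold a match. The genes compared were not matched on base composition or on level, and many of the 27025 were not among the genes tested here. Counted by window, 17 of 45 member windows (37.78%) held these letters, against 16.57% of all 32851 windows. Tpi1 had 0 matches in its window and Pgd 0 in both of its windows, so members that were higher and members that were lower after AVP are found both with and without these letters. A match describes letters only and is not a measured binding site.

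A total of 8523 genes reached 1 FPKM in 3 or more libraries. Of these, 0 (0%) passed an adjusted p of 0.05 by limma with Benjamini-Hochberg adjustment, so 0 of the 29 members that passed this filter did. At an unadjusted p under 0.05, 402 genes (4.72%) were higher after AVP and 320 (3.75%) lower. Among the 29 members 3 were higher (Slc16a3, Ldha and Tpi1) and 0 lower. The groups did not overlap, with AVP higher, in 545 genes (6.39%) and, with AVP lower, in 650 genes (7.63%). The members' counts, 2 higher (Slc16a3 and Tpi1) and 2 lower (Hk2 and Pgd) of 29, are 6.897% each and lie near that background. The median log2 fold change was 0.16 over the 29 members and -0.04 over all genes tested, and 21 of the 29 lay above 0, where 47.9% of all genes did. The members' median differed between libraries of a group by an SD of 0.19, close to its own size.

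Of the 4 members that did not pass the filter on low values, Pfkm, the muscle subunit of phosphofructokinase, was listed at 0 in all 6 libraries. Pfkl, the liver subunit, was listed at 0, 0 and 0.513 FPKM in controls and 0, 3.16 and 3.57 FPKM after AVP. Gys1, glycogen synthase, was between 0 and 3.63 FPKM in all libraries. Pgm2, of the phosphoglucomutase family and grouped here under glycogen, was at 0.293, 0.127 and 0.95 FPKM in controls and 6.74, 14.5 and 0.451 FPKM after AVP. Its high values thus lay in AVP replicates 1 and 2, and the groups overlapped. A listed 0 may reflect an estimate that failed, and no fold is given for these genes.

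**Figure D1:**
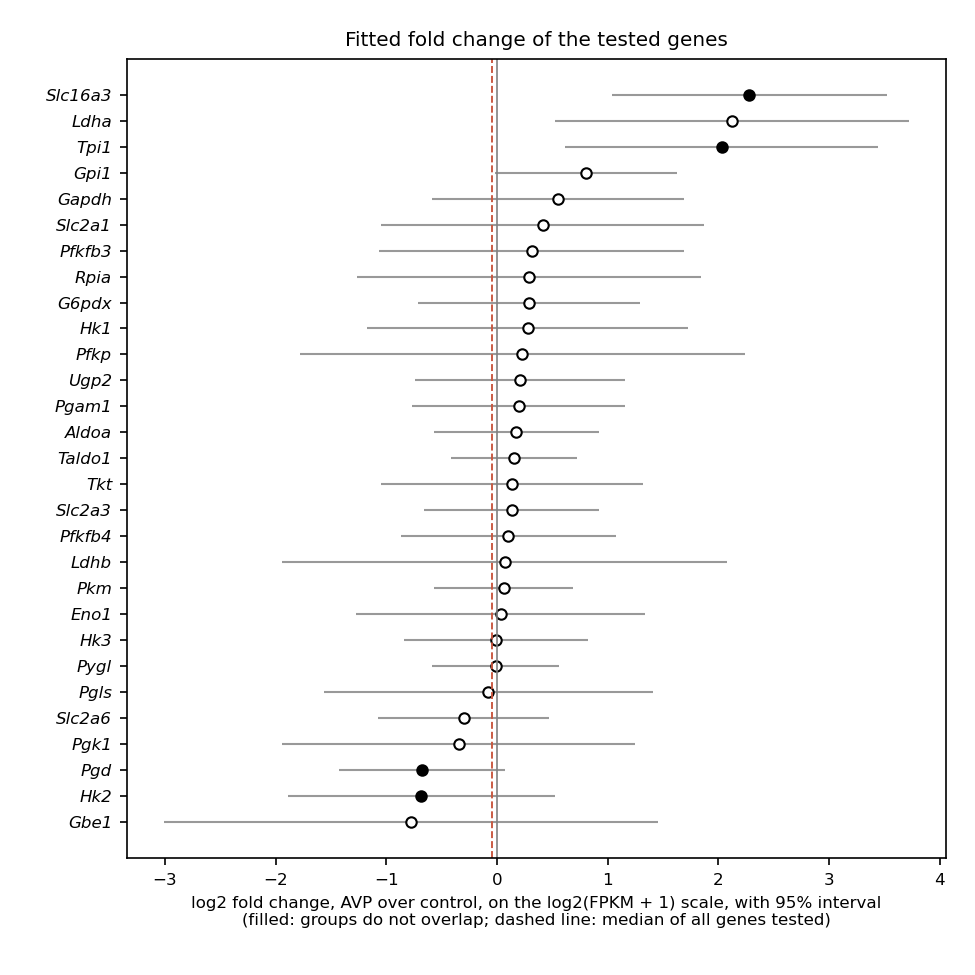
Fitted log2 fold change (AVP over control, on the log2(FPKM + 1) scale) of the 29 tested members with its 95% interval; filled points mark genes whose groups do not overlap and the dashed line the median of all genes tested. The intervals of Slc16a3, Ldha and Tpi1 lie above 0, and the other 26 cross it.

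Several whole-series facts touch these results. Sequencing depth is not listed and was estimated at 14199000 to 16845000 fragments. The estimate took the most frequent product of FPKM and length among short pseudogenes as a single fragment. It rested on 50 to 87 pseudogenes per library. The 8 neutrophil markers summed to 165339 to 193799 FPKM in every library, but S100a8 and S100a9 made up nearly all of this. All 8 were above 0 in every library, and some differed between the groups. Retnlg was at 4925 to 5538 FPKM in controls and 9729 to 11050 FPKM after AVP, and Mmp9 at 229 to 374 FPKM and 101 to 197 FPKM. Red cell markers summed to 102677 to 154872 FPKM in controls and were highest in AVP replicate 1 (242590 FPKM), above the neutrophil sum of that library (165339 FPKM). B cell markers summed to 4893 to 7745 FPKM in controls and 1258 to 4839 FPKM after AVP, so these groups did not overlap either. Monocyte markers were lowest in AVP replicate 3, at 190 FPKM against 490 to 1075 FPKM in the other 5 libraries. The 6 T and NK cell markers summed to 157 FPKM in that library and 1.31 to 15.1 FPKM elsewhere (Cd3e at 0 in all), and the 4 basophil markers to 303 FPKM in AVP replicate 1 and 0 to 3.78 FPKM elsewhere. Platelet markers overlapped between the groups (84.4 to 212 FPKM over all libraries), and of the 3 eosinophil markers Prg2 and Epx were at 0 in all. The part of these other cells in the differences below was not tested beyond the values given, and fewer cells of a type cannot be told apart from less RNA per cell.

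Glucose enters through facilitative transporters, of which 3 were followed. Slc2a6 (GLUT6), an intracellular transporter of leukocytes, stood at 59.5, 49.5 and 52.3 FPKM in controls and 53.9, 34.8 and 36.2 FPKM after AVP. Slc2a3 (GLUT3), a high-affinity transporter, was at 48.4, 47.7 and 31.4 FPKM in controls and 34.0, 59.9 and 39.4 FPKM after AVP. The groups overlapped for both, with log2 fold changes of -0.30 (SE 0.34) and 0.13 (SE 0.34). Slc2a1 (GLUT1), the widespread transporter, was lower, at 3.53 to 11.7 FPKM over the 6 libraries, and was highest in AVP replicates 1 and 2. Together the 3 transporters summed to 103 ± 13.6 FPKM in the control libraries and 95.03 ± 14.1 FPKM in the AVP libraries (SD, n = 3), a difference within the spread of either group.

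Hexokinases trap glucose in the cell as glucose 6-phosphate. Hk3, the isoform typical of myeloid cells, took 71.4% to 75.9% of the summed hexokinase FPKM in controls and 77.4% to 81.0% after AVP. Hk2, an inducible isoform that docks on mitochondria, was at 11.8, 8.54 and 8.98 FPKM in controls and 6.90, 5.02 and 4.28 FPKM after AVP. All 3 AVP libraries lay below all 3 controls, but the difference did not pass the test across all genes (log2 fold change -0.68, SE 0.52, adjusted p = 0.787 by limma). The share of Hk2 among hexokinases, which does not depend on library scaling, was 19.7% ± 1.17 in controls and 12.6% ± 3.14 after AVP (SD, n = 3). By an exact permutation test, two-sided, p was 0.1, the lowest possible with 3 libraries in each group, and 0.5 after adjustment over the 10 paralog shares compared. Hk1, the constitutive isoform, was at 1.69 to 4.96 FPKM in all libraries. The Hk2 gene (identifier 15277, protein-coding) lies on chromosome 6 from 82725025 to 82774454 in GRCm38.

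**Figure D2:**
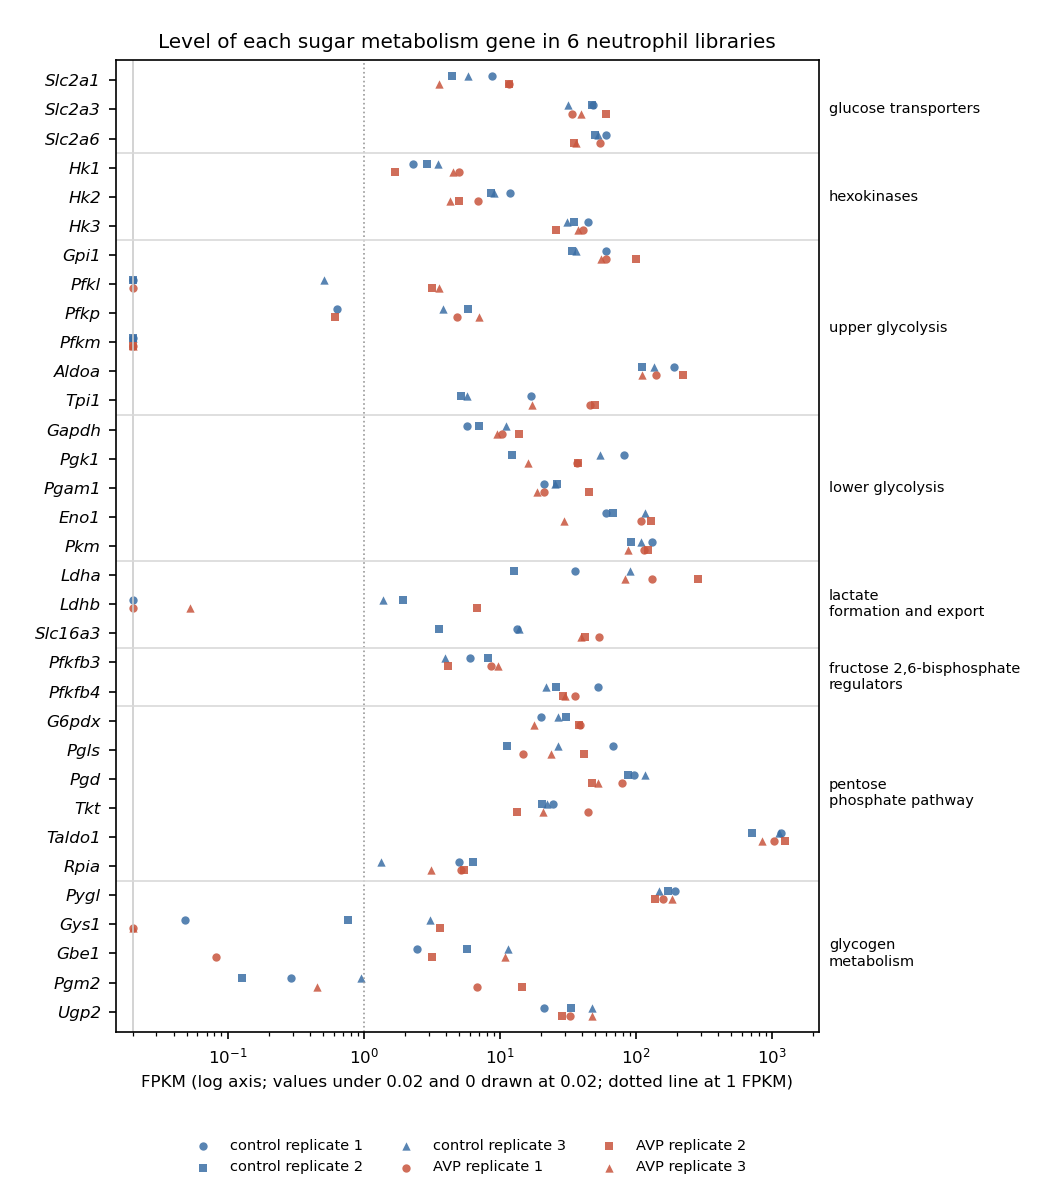
FPKM of each of the 33 members in each of the 6 libraries on a log axis, grouped by role, with controls in blue and AVP in red and the replicate number given by the symbol; values under 0.02 are drawn at 0.02 and the dotted line marks 1 FPKM. Taldo1 stands alone at 709 to 1246 FPKM, and the AVP points of Slc16a3 are separate from those of the controls.

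In the upper, energy-consuming part of glycolysis, Aldoa, fructose bisphosphate aldolase, was at 191, 110 and 135 FPKM in controls and 140, 219 and 110 FPKM after AVP. The groups overlapped throughout (log2 fold change 0.17, SE 0.32). Gpi1, which converts glucose 6-phosphate to fructose 6-phosphate, was at 59.7, 33.8 and 35.9 FPKM in controls and 60.5, 99.8 and 54.9 FPKM after AVP. Only control replicate 1 reached the AVP level, and the log2 fold change was 0.80 (SE 0.36, adjusted p = 0.603 by limma). Pfkp, the platelet-type phosphofructokinase subunit, ranged from 0.612 to 6.96 FPKM and was highest of the 3 subunits in 5 of 6 libraries, although Pfkl exceeded it in AVP replicate 2.

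Tpi1, which interconverts the triose phosphates made by aldolase, was at 17.0, 5.15 and 5.70 FPKM in controls and 45.4, 50.0 and 17.1 FPKM after AVP. AVP replicate 3 stood only just above control replicate 1, while the other AVP libraries were well separated. On the fitted scale the difference was a log2 fold change of 2.03 (SE 0.61). Its adjusted p by limma was 0.352, and 0.333 to 0.733 under other settings or with a library left out. The gene (identifier 21991, protein-coding) lies on chromosome 6 from 124810586 to 124814158 in GRCm38. It overlaps the neighbouring gene Spsb2 by 34 bases.

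The lower, energy-yielding enzymes showed no common direction. Pkm, pyruvate kinase, was at 130, 90.9 and 108 FPKM in controls and 115, 122 and 87.2 FPKM after AVP, and its sign depended on the scaling (0.06 as fitted, -0.02 on the deposited scale). Eno1, enolase, was at 59.6, 67.4 and 116 FPKM in controls and 109, 129 and 29.6 FPKM after AVP. AVP replicate 3, the library with the lowest monocyte markers, was thus also lowest for Eno1. The fitted log2 fold change of Eno1 was 0.03 (SE 0.57), -0.05 on the deposited scale and 0.70 without AVP replicate 3. Pgk1, phosphoglycerate kinase, varied more than any other enzyme of this group within the controls, from 12.3 to 81.4 FPKM, and was at 16.1 to 37.7 FPKM after AVP. Pgam1, phosphoglycerate mutase, was at 18.6 to 45.1 FPKM over the 6 libraries and highest in AVP replicate 2.

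Gapdh, often used as a reference transcript, was listed at only 5.72, 7.05 and 11.1 FPKM in controls and 10.3, 13.7 and 9.56 FPKM after AVP. Its longest coding transcript aligned over at least 300 bases at 95% identity or more to 42 other annotated genes, 39 of them pseudogenes. The 36 of these listed in the files held between 81.8 and 321 FPKM in sum, so Gapdh itself took 4.10% to 8.40% of the total of gene and copies. With the copies added, the total was 87.6, 105 and 173 FPKM in controls and 156, 335 and 114 FPKM after AVP. On either measure the groups overlapped. Eno1 held 69.3% to 80.2%, Pgam1 50.4% to 64.8% and Pgk1 42.4% to 74.0% of the sum with their copies, and the deposited levels of these 4 enzymes are uncertain for that reason. No copy at these limits was found for Slc16a3, Ldha, Tpi1, Hk2 or Pgd.

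**Figure D3:**
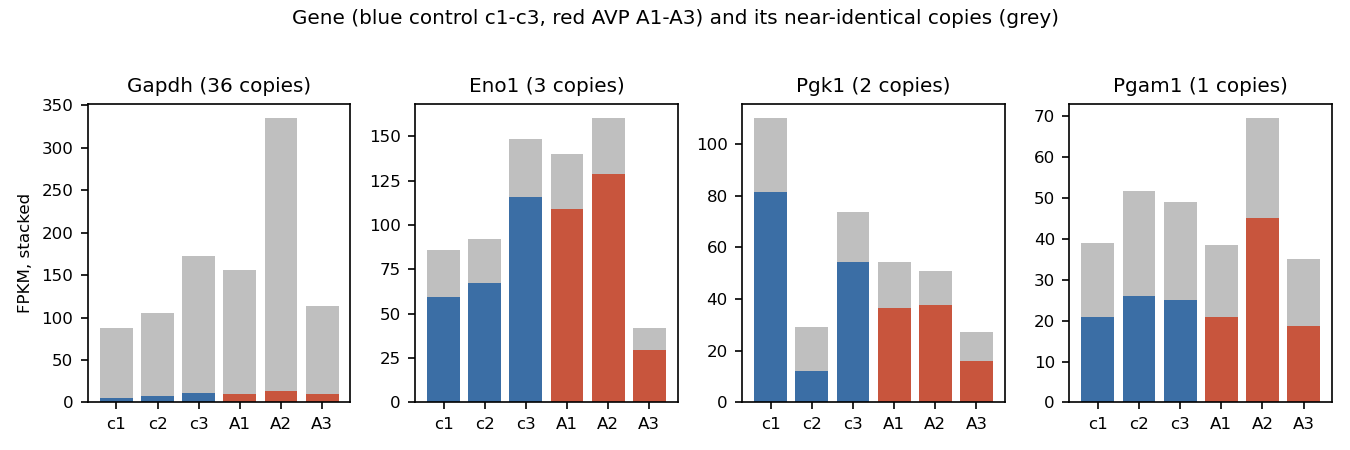
Stacked FPKM of 4 lower glycolysis genes (blue in controls, red after AVP) and of the features in the files that are near-identical to them (grey), per library (c1 to c3 controls, A1 to A3 AVP). For Gapdh nearly all of the bar is grey, and the groups overlap in all 4 panels.

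Lactate dehydrogenase reduces pyruvate to lactate and restores the NAD+ that glycolysis needs. Ldha was at 35.7, 12.7 and 89.6 FPKM in controls and 131, 286 and 82.2 FPKM after AVP. Control replicate 3 lay above AVP replicate 3, so the groups overlapped, and AVP replicate 2 was highest. Its log2 fold change of 2.12 (SE 0.69) had, by limma, an adjusted p of 0.406 (0.307 to 0.733 over the other settings). Without AVP replicate 2 the log2 fold change was 1.69 and Ldha no longer had an unadjusted p under 0.05. Ldhb, the subunit of oxidative tissues, was at 0 to 6.75 FPKM, and Ldha took 86.7% to 100% of the FPKM of the pair in every library. The Ldha gene (identifier 16828, protein-coding) lies on chromosome 7 from 46842274 to 46855627 in GRCm38.

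Slc16a3 encodes MCT4, a lactate exporter of strongly glycolytic cells. It was at 13.3, 3.56 and 13.9 FPKM in controls and 53.7, 41.9 and 39.1 FPKM after AVP. The lowest AVP library was well above the highest control. The fitted log2 fold change was 2.28 (SE 0.54, 95% interval 1.03 to 3.52), the largest among the tested members. Its adjusted p was 0.282 by limma and ranged from 0.225 to 0.733 over the alternatives, and the log2 fold change lay between 1.73 and 2.57 when single libraries were left out. In AVP replicate 2, at 41.9 FPKM, basophil markers summed to 0, T and NK cell markers to 12.6 FPKM and monocyte markers to 1010 FPKM. The part of other cells in the Slc16a3 difference was not tested. The gene (identifier 80879, protein-coding) lies on chromosome 11 from 120948484 to 120959000 in GRCm38. It overlaps Csnk1d by 1292 bases, and Csnk1d was at 4.50 to 7.09 FPKM in controls and 4.34, 14.6 and 3.43 FPKM after AVP, without the separation seen in Slc16a3. Whether the counting used strand is not given in the sources used here.

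Summed over Ldha, Ldhb and Slc16a3, lactate formation and export stood at 49.0, 18.3 and 105 FPKM in controls and 185, 334 and 121 FPKM after AVP. This was the only one of the 8 role groups whose sums did not overlap, with AVP replicate 3 not far above control replicate 3. Of all single genes tested, 14% did not overlap in either direction, so 1 group of 8 is not set apart from that background. Most of each sum was Ldha, whose own groups overlapped, and the sum includes Slc16a3, already named for its separate groups. For this sum the ratio of the means was 3.72. It was 2.67 to 6.34 when single libraries were left out, the highest value being that without control replicate 3. The ratio was near 1 for lower glycolysis (0.980) and glycogen metabolism (0.981), and 1.35 for upper glycolysis, where the groups overlapped. It was 0.999 for the pentose phosphate pathway, most of which was Taldo1. Without Taldo1, a sum chosen after its values were seen, the ratio was 0.790 (0.703 to 0.871 when single libraries were left out). Those sums were 213, 155 and 192 FPKM in controls and 180, 145 and 118 FPKM after AVP, and they overlapped. The sums are descriptions without a test, since the members were chosen with results of these data known.

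**Figure D4:**
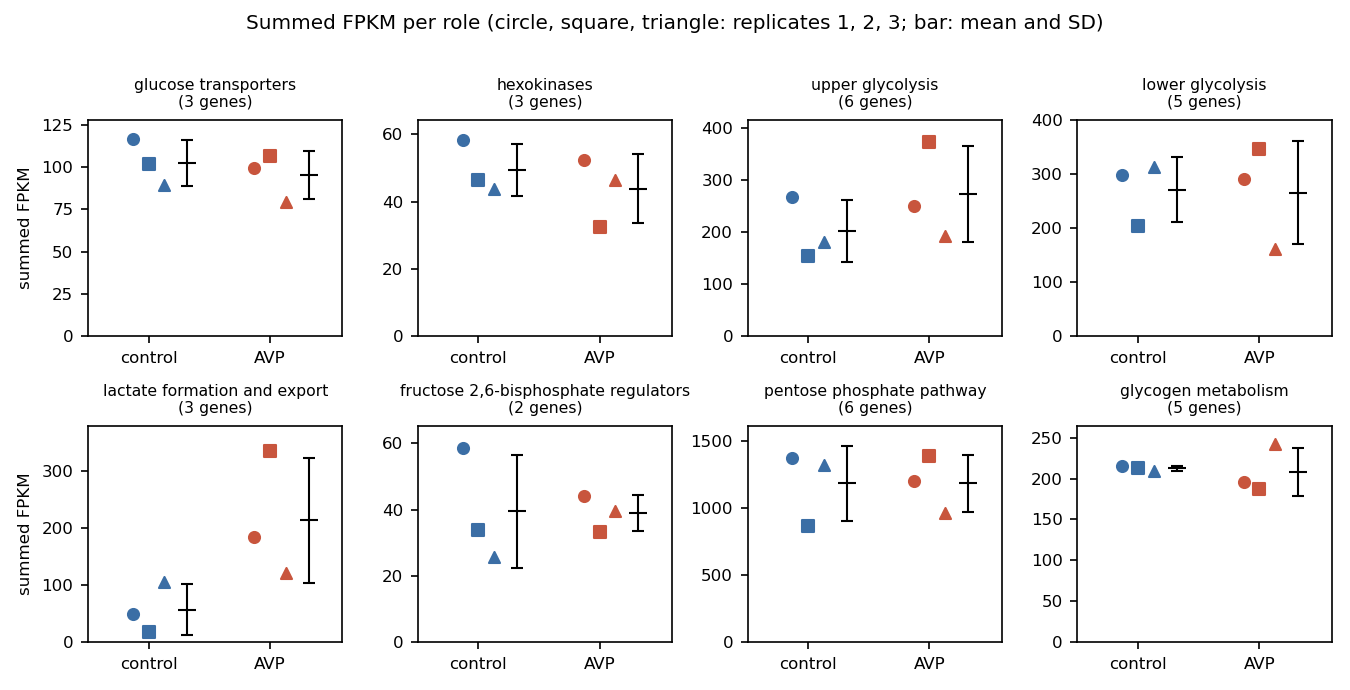
Summed FPKM of each role group per library, with circles, squares and triangles for replicates 1, 2 and 3 and bars for the mean and SD of each group. The sums overlap between control and AVP in 7 panels; in lactate formation and export the AVP libraries, at 121 to 334 FPKM, lie above the controls, at 18.3 to 105 FPKM.

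The PFKFB enzymes make and break the metabolite that activates phosphofructokinase. Pfkfb4 was the more abundant, at 52.6, 25.7 and 21.8 FPKM in controls and 35.7, 29.1 and 29.9 FPKM after AVP, and control replicate 1 stood apart. Pfkfb3, the strongly glycolytic isoform, was at 3.95 to 9.71 FPKM. The share of Pfkfb3 in the pair was 16.6% ± 7.04 in controls and 18.7% ± 6.05 after AVP (SD, n = 3), a difference within the spread.

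Taldo1, transaldolase of the non-oxidative pentose phosphate branch, was by far the most abundant member, at 1162, 709 and 1127 FPKM in controls and 1022, 1246 and 844 FPKM after AVP. Its mean ranked 70 among all 47561 features. The groups overlapped (log2 fold change 0.16, SE 0.25, 95% interval -0.41 to 0.72). Transketolase, its partner enzyme, encoded by Tkt, was far lower, at 13.4 to 43.9 FPKM, and the ratio of Taldo1 to Tkt ran from 23.3 in AVP replicate 1 to 92.8 in AVP replicate 2. These are levels of transcripts and not of enzymes.

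The oxidative branch makes NADPH in 2 steps, catalysed by the products of G6pdx and Pgd. Pgd, 6-phosphogluconate dehydrogenase, was at 95.7, 86.8 and 115 FPKM in controls and 78.1, 47.0 and 52.7 FPKM after AVP. Every AVP library lay below every control, AVP replicate 1 least so. Its log2 fold change of -0.67 (SE 0.33, 95% interval -1.42 to 0.08) had, by limma, an adjusted p of 0.642. The unadjusted p was 0.0717, or 0.0369 on the deposited scale. G6pdx, glucose 6-phosphate dehydrogenase, the entry enzyme, did not share that pattern, at 20.1, 30.7 and 26.7 FPKM in controls and 38.4, 37.7 and 17.6 FPKM after AVP. It lies wholly within the span of Ikbkg, which was at 0 to 4.14 FPKM. Pgls, which acts between them, ranged from 11.2 to 67.5 FPKM within the controls alone. Rpia, ribose 5-phosphate isomerase, was at 1.33 to 6.37 FPKM. The Pgd gene (identifier 110208, protein-coding) lies on chromosome 4 from 149149991 to 149166705 in GRCm38, and B cell markers were also lower in every AVP library.

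Glycogen breakdown was represented by Pygl, glycogen phosphorylase, at 191, 172 and 146 FPKM in controls and 157, 137 and 183 FPKM after AVP, with a log2 fold change of -0.01 (SE 0.25, 95% interval -0.58 to 0.56). It was the most abundant glycogen gene in all libraries. Ugp2, which makes the UDP-glucose used for synthesis, was at 21.1 to 47.5 FPKM in controls and 28.7 to 47.0 FPKM after AVP. Gbe1, the branching enzyme, was at 2.44, 5.73 and 11.4 FPKM in controls and 0.0826, 3.15 and 10.9 FPKM after AVP. Summed FPKM of the 5 glycogen genes was 212 ± 3.10 in the control libraries and 208 ± 29.3 in the AVP libraries (SD, n = 3).

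Another 103 genes of the same pathways were followed from a list (other isoforms, transporters, the pyruvate dehydrogenase complex, glycogen enzymes and regulators). Of these 28 were listed at 0 in all 6 libraries and 39 passed the filter. By limma 0 of the 39 passed over all genes, 2 (Bsg and Myc) were higher with an unadjusted p under 0.05 and 2 (Txnip and Egln3) lower, and the groups did not overlap in 3 higher and 3 lower genes, 7.692% each, near the background of 6.39% and 7.63%. Their median log2 fold change was 0.05.

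Bsg encodes basigin, the chaperone that carries MCT4 to the membrane. It was at 26.3, 21.9 and 20.2 FPKM in controls and 50.4, 46.9 and 31.0 FPKM after AVP, all 3 above the controls (log2 fold change 0.94, SE 0.36, adjusted p = 0.506 by limma). The ratio of Slc16a3 to Bsg was 0.163 to 0.689 in controls and 0.893 to 1.26 after AVP, so the exporter differed more than its chaperone. Hif1a, the oxygen-regulated transcription factor that acts on many glycolytic genes, was at 12.2, 9.78 and 7.46 FPKM in controls and 14.02, 21.4 and 19.4 FPKM after AVP. Its groups did not overlap either (log2 fold change 0.92, SE 0.43, adjusted p = 0.627 by limma).

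Myc, a transcription factor of growth and metabolism, was at 1.51, 0 and 0.341 FPKM in controls and 7.63, 3.26 and 8.59 FPKM after AVP (log2 fold change 2.29, SE 0.66, adjusted p = 0.338 by limma). Txnip, which restrains glucose uptake and is induced by glucose, was at 356, 260 and 284 FPKM in controls and 219, 136 and 136 FPKM after AVP (log2 fold change -0.81, SE 0.30, adjusted p = 0.481 by limma). Txnip overlaps the noncoding gene Gm15441 by 3901 bases. Gm15441 was also lower after AVP, at 3.65, 4.75 and 9.28 FPKM in controls and 0, 0.135 and 2.56 FPKM after AVP. Egln3, a prolyl hydroxylase that marks HIF1 for degradation and is itself a hypoxia target, was at 3.28, 4.82 and 9.11 FPKM in controls and 0.0781, 0.848 and 0 FPKM after AVP. All 3 AVP libraries were below 1 FPKM, the log2 fold change being -2.30 (SE 0.60) and the adjusted p 0.303 by limma. Phkg2, a subunit of phosphorylase kinase, was at 4.91, 24.3 and 4.25 FPKM in controls and 2.04, 3.11 and 2.52 FPKM after AVP, a difference that control replicate 2 enlarged. Phkg2 overlaps Ccdc189 by 925 bases. Ccdc189 went the other way, at 0.778, 7.84 and 7.27 FPKM in controls and 12.3, 16.4 and 27.6 FPKM after AVP. The part of these overlaps in the Txnip and Phkg2 differences was not tested. None of the 6 genes passed the test across all genes.

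**Figure D5:**
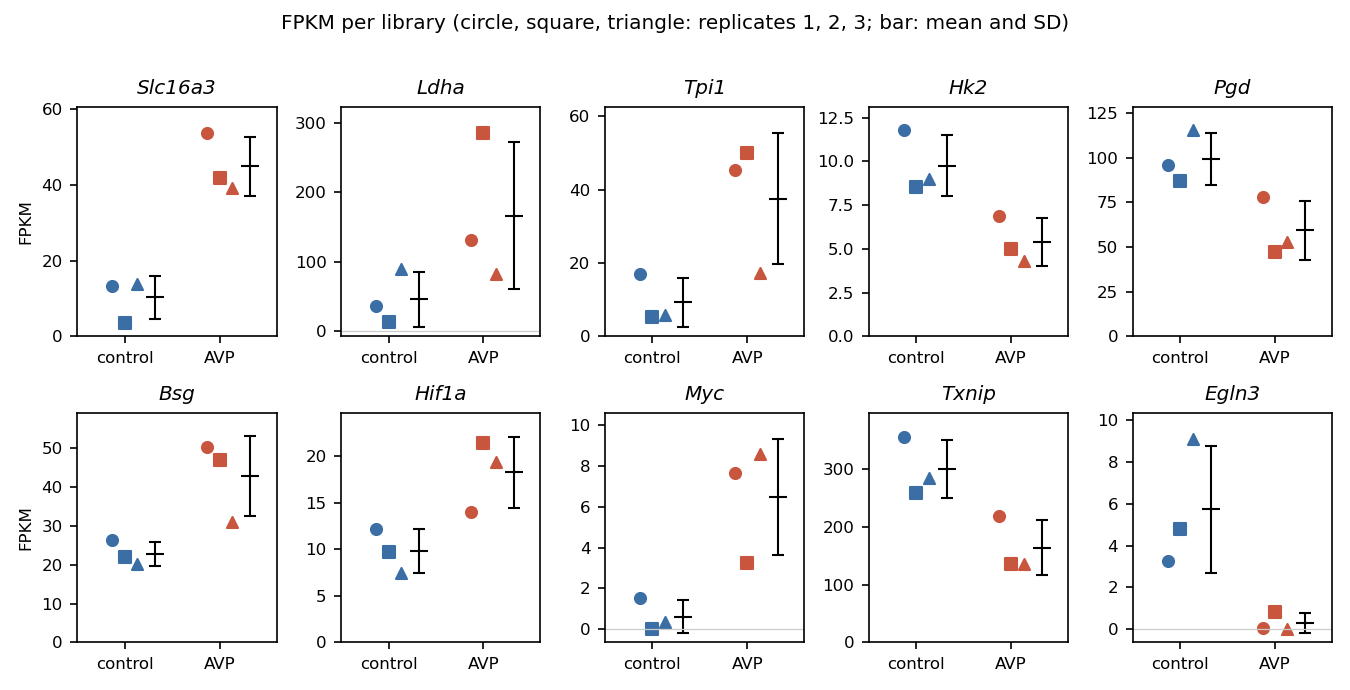
FPKM per library of the 5 members with an unadjusted p under 0.05 or groups that do not overlap (top row) and of 5 other pathway genes (bottom row), with circles, squares and triangles for replicates 1, 2 and 3 and bars for the mean and SD. The groups are separate in every panel but that of Ldha, where control replicate 3 (89.6 FPKM) lies above AVP replicate 3 (82.2 FPKM).

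The spread between libraries of a group was large. It depends on the level of a gene, and 26 of the 29 tested members reached 5 FPKM in 3 libraries against 5268 of all 8523 genes, so the shares below are not matched on level. The highest control library exceeded the lowest by more than 2 times, on the FPKM + 1 scale, in 11 of the 29 tested members (37.93%) and in 59.91% of all genes tested. After AVP the shares were 48.28% of the members and 64.26% of all genes. AVP replicate 2 held the highest value of 11 members (37.93%, against 16.71% of all genes) and the lowest of 7 (24.14%, against 11.1%). Control replicate 2 held the lowest of 8 (27.59%, against 19.2%). The highest library was control replicate 1 for another 8. The summed FPKM of all 33 members was 2438, 1635 and 2287 in controls and 2322, 2804 and 1844 after AVP, from 0.201% to 0.355% of the library totals. The groups overlapped, with AVP replicate 2 above every control and control replicate 2 below every AVP library.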

How the data were processed

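The authors deposited 1 file per library with a value per gene or transcript feature. The values are taken as FPKM deposited by the authors: the files name no unit, and the values are not whole and differ in total between libraries (755140 to 829725). Per the submitters' processing notes, the mm10 build, the aligner HISAT2 2.1, featureCounts 1.6.4, DESeq2 2.11.40.6, cutadapt 1.16.5 and bcl2fastq 2.19 were used; how each was set is not given in the sources used here.

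Genes that reached 1 FPKM in 3 or more libraries were tested. Scaling used the geometric mean library as reference and a mean of log ratios trimmed by 30% at each end (5% by level). log2(FPKM + 1) was fitted with limma 3.58.1 in R 4.3.3 with an intensity trend, without a replicate term. This scale understates fold changes of low genes, and printed FPKM are unscaled. The fit was tested on simulated data. The simulated differences were placed in well expressed genes only, so that check does not cover differences in low genes such as Hk2, Myc and Egln3. All 33 members matched a RefSeq table of GRCm38.p6 by symbol, which gave identifiers and coordinates, and promoter windows are from RefSeq. Copies were found with minimap2 2.31 against GENCODE M21 transcripts. Exact tests, tables and plots used Python 3.11.15, pandas 2.3.3, numpy 2.4.6 and matplotlib 3.10.9.

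Members and lists were chosen with earlier results of these data known. In detail are given the members with an unadjusted p under 0.05 or groups that do not overlap and the 10 with the highest mean. Other pathway genes are named by the p and overlap criteria alone. Sums are given without the test first planned for them. Alternatives were other scalings, filters, pseudocounts and moderation, a replicate block, and leaving out each library.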

Additional observations from a re-analysis of the deposited data

How the results depend on the processing

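No member passed an adjusted p of 0.05 under any setting. Over all genes the count of 0 became 11 with a filter of 5 FPKM in 3 libraries, 3 with a pseudocount of 5 and 1 with no intensity trend, and lay between 0 and 4 with each library left out (4 without control replicate 3). Correlations of deviations were 0.02, -0.01 and -0.04 for same-numbered libraries and -0.0356 to 0.0509 for the others. With so few libraries in each group they cannot settle whether same-numbered samples were paired. The replicate block gave 0 calls and 670 genes at an unadjusted p under 0.05, against 722 without it. The members' median log2 fold change was 0.07 on the deposited scale and 0.11 to 0.22 with each library left out. The count of members with an unadjusted p under 0.05 or separate groups, 5, was 6 to 8 with a library left out. In those runs 23% to 27.3% of all genes did not overlap, against 14% with all libraries. The count was 8 without AVP replicate 3, where Gpi1, G6pdx and Slc2a1 joined, and where 27.3% of all genes did not overlap. Without AVP replicate 2 the count was 7, and 25.8% of all genes did not overlap. Ldha dropped out there (adjusted p = 0.555 by limma), and Hk1, Pgam1 and Pfkfb3 joined by separate groups alone.

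Slc16a3, Ldha, Tpi1, Hk2, Pgd and Gpi1 kept their direction under every setting. So did Slc2a1, Slc2a6, Hk1, Gapdh, Pfkfb3 and G6pdx, so a kept direction was not particular to the members with the largest differences. The sign of 17 of 29 fold changes turned under some setting. When single libraries were left out, the log2 fold change ranged from -0.0722 to 0.24 for Slc2a3, -0.19 to 0.24 for Hk3, -0.37 to 0.96 for Pfkp, -0.0451 to 0.41 for Aldoa, -1.12 to 0.18 for Pgk1, -0.13 to 0.45 for Pgam1, -0.30 to 0.70 for Eno1, -0.0532 to 0.22 for Pkm, -0.39 to 0.57 for Ldhb, -0.14 to 0.47 for Pfkfb4, -0.68 to 0.55 for Pgls, -0.37 to 0.56 for Tkt, -0.0628 to 0.31 for Taldo1, -0.21 to 0.62 for Rpia, -0.12 to 0.14 for Pygl, -1.62 to 0.11 for Gbe1 and -0.0901 to 0.48 for Ugp2. On the deposited scale Eno1 was at -0.0514 and Pkm at -0.0227, and with a pseudocount of 0.1 Ldhb was at -0.51. The AVP to control ratio of summed FPKM ranged, with each library left out, from 0.871 to 1.00 for glucose transporters, 0.798 to 1.00 for hexokinases, 0.832 to 1.17 for lower glycolysis, 0.843 to 1.31 for the PFKFB enzymes, 0.880 to 1.09 for the pentose phosphate pathway, 0.902 to 1.03 for glycogen genes and 0.982 to 1.21 for all members. After scaling, the ratio was 1.04 for lower glycolysis, 1.06 for the PFKFB enzymes, 1.06 for the pentose phosphate pathway and 1.04 for glycogen genes, and as a share of the total without haemoglobin, immunoglobulin and mitochondrial genes it was 1.00 for the pentose phosphate pathway. The difference in share ranged from -0.031 to 6.62 percentage points for Ldha and -0.98 to 5.97 for Pfkfb3. The causes were not tested. Depth limits genes near 1 FPKM, where few fragments stand behind a value.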
